A study of Mus musculus with 12 samples.

Results

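The comparison is between 2 groups of mouse hippocampal libraries that carry the same disease transgenes and differ in the label of the p75 neurotrophin receptor: 3 libraries labelled 5xFAD/p75NTRko and 3 labelled 5xFAD. They were chosen by their titles and make up 6 of the 12 libraries of the series, whose other 6 are labelled WT and p75NTRko, 3 each. Of 24421 genes in the table, 13065 had enough counts to be tested, and the 12560 on autosomes are described here by function and by cell type. All mice were 2 months old and had been injected with BrdU, which labels newly made DNA, so the control groups share that treatment. 5xFAD mice express human Alzheimer's disease genes carrying familial mutations, driven by a Thy1 promoter, which is active mainly in neurons, and p75NTRko names a knockout of the receptor, whose allele is not given in the sources used here. The labels call the libraries biological replicates without naming animals, litters or sex, and nothing in them says that animals were pooled. If some share an animal, p-values measure only a technical spread.

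The gene Ngfr encodes the p75 receptor, which binds neurotrophins and their precursors and works with Trk receptors, sortilin and the Nogo receptor to steer survival, death and growth of neurons and glia. In the adult hippocampus it is low in most cells and is known from cholinergic fibres arriving from the basal forebrain, from precursor cells and from injured glia. Oligodendrocytes wrap axons in myelin, a membrane rich in cholesterol, and arise from oligodendrocyte precursors. In young 5xFAD mice amyloid is produced early, and microglia and astrocytes respond to the plaques that follow.

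Libraries were made from 3′ ends of polyadenylated RNA, so a count stands for a transcript end. Gene-assigned counts numbered 4857842 to 5920107 in 5xFAD and 5268701 to 6172547 in 5xFAD/p75NTRko, and levels are given as CPM, the counts scaled to a common library total, on scaled library sizes. A total of 3 counts, taken as the limit of measurement, corresponded to 0.446 to 0.690 CPM over the 12 libraries, an allowance for counting error only. All 18 listed dentate granule cell genes and 19 of 22 listed CA pyramidal cell genes were measured. So were 18 of 20 neocortex and subiculum genes and 20 of 22 choroid plexus genes. Being measured therefore does not check the tissue label. Xist, the RNA that coats an inactive X chromosome, was at 360 to 439 CPM in the 5xFAD/p75NTRko libraries and at 1.53 to 3.58 CPM in the 5xFAD libraries, while the genes tested on Y summed to 0.656 to 1.36 CPM and to 169 to 200.5 CPM. The class of Xist level therefore divides these 6 libraries exactly as the receptor label does, and the 2 cannot be told apart among transgene carriers. In WT Xist was at 375.5 to 393.7 CPM. It was at 395.6, 1.84 and 1.64 CPM in p75NTRko replicates 1, 2 and 3. Only p75NTRko thus held both classes, so a term for the class rests on its replicate 1 against replicates 2 and 3. From WT to p75NTRko the class mostly moves opposite to its move among carriers. How the label difference changes with the transgenes thus cannot be told apart from the class. With the Xist class as a term 0 autosomal genes passed the adjusted threshold in edgeR and 491 had an unadjusted p under 0.05. 5xFAD/p75NTRko replicate 1 stood apart in markers of tissue next to the hippocampus: its choroid plexus genes summed to 7384 CPM, against 188.1 and 380.2 CPM in replicates 2 and 3 and 340.8 to 1993 CPM in 5xFAD. Its thalamus and habenula genes summed to 1109 CPM, against 386.7 to 561.0 CPM in the other 5 libraries. In bulk tissue, fewer cells of a type and less RNA per cell cannot be told apart.

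Few autosomal genes separated the groups beyond the spread of the libraries. In edgeR's quasi-likelihood fit, with p-values adjusted by Benjamini-Hochberg over all 13065 genes, 2 autosomal genes passed the threshold of 0.05, which is 0.0159% of those tested: Ngfr rose and Ide fell. The other 3 genes past it were Ddx3y, Eif2s3y and Uty, all on Y and all lower in 5xFAD/p75NTRko. An unadjusted p under 0.05 was reached by 639 autosomal genes (5.09%), 248 of them higher (1.97%) and 391 lower (3.11%) in 5xFAD/p75NTRko. Libraries of the 2 groups did not overlap for 1420 genes (11.3%), 652 higher (5.19%) and 768 lower (6.11%), and the median log2 fold change over all autosomal genes was 0.01. The 2 calls depended on single libraries. Leaving out 5xFAD/p75NTRko replicate 1 gave 7 autosomal calls, Chchd2, Fxr1, Glg1, Ide, Ngfr, Nt5c3 and Rps27a, and leaving out any of the other 5 libraries gave 0, with 507 to 757 unadjusted p-values under 0.05. DESeq2 called 15 autosomal genes, Ide among them, and gave no adjusted p for Ngfr.

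**Figure D1:**
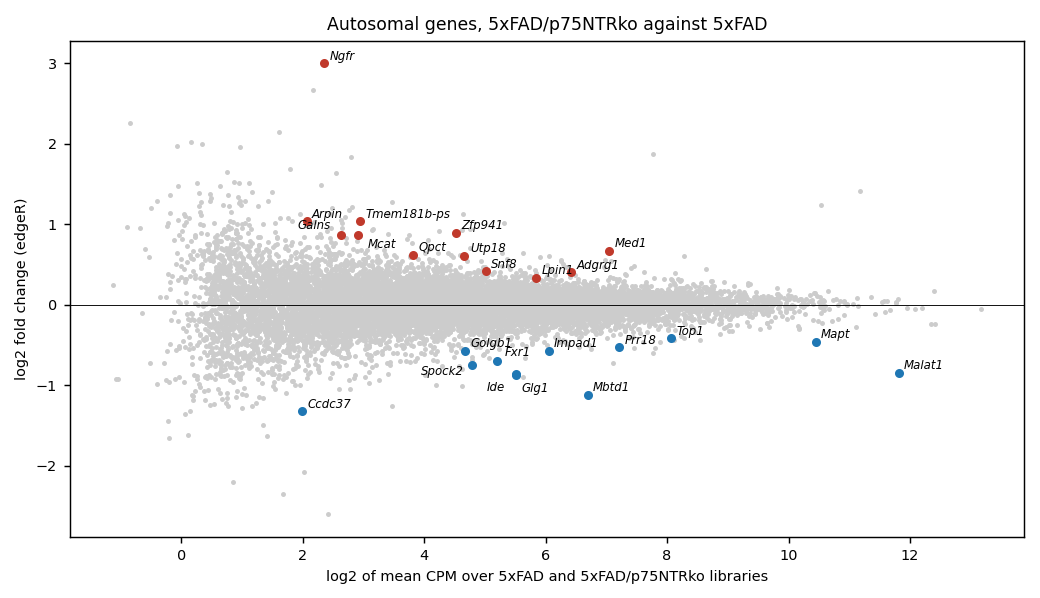
Log2 fold change of 5xFAD/p75NTRko over 5xFAD (y axis, edgeR) against the log2 of mean CPM over the 6 libraries (x axis) for the autosomal genes tested, each a grey point. Red points are the 12 higher and blue points the 12 lower genes named by rule, and Ngfr stands highest at a log2 fold change of 2.997.

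The targeted gene went against its label. Ngfr (chr11:95568818-95587698, GRCm38) was at 1.70, 0.751 and 0.841 CPM in the 3 libraries labelled 5xFAD, from 10, 4 and 4 counts. It was at 6.33, 10.5 and 10.5 CPM in the libraries labelled 5xFAD/p75NTRko, from 38, 54 and 64 counts. The groups did not overlap, and the gene was higher where the label says knockout. The log2 fold change was 2.997 (SE 0.463, n = 3 and 3) with an adjusted p of 0.0478 in edgeR, and from 0.00129 to 0.9987 over 15 alternative settings. Without 5xFAD/p75NTRko replicate 1 it was 0.0249, and without any of the other 5 libraries it was 0.127 to 0.3345. The mean difference was 8.02 CPM, with a two-sided exact permutation p of 0.1, the smallest that 3 libraries against 3 can give. Without the transgenes the order was the same: 0.897, 1.95 and 0.166 CPM in WT, and 7.79, 7.36 and 5.95 CPM in the libraries labelled p75NTRko. The WT values came from 6, 12 and 1 counts, the last of them under the limit of 3 counts. A 3′ tag checks a knockout only where the deleted stretch holds the tag, and the sources used here do not give that stretch. Every direction below is therefore that of the libraries labelled 5xFAD/p75NTRko.

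The transgene promoter's own gene and the endogenous precursor gene showed no separation. Thy1 was at 3977, 4018 and 1596 CPM in 5xFAD and at 1781, 4019 and 3180 CPM in 5xFAD/p75NTRko, with a log2 fold change of -0.10 (SE 0.294, edgeR adjusted p = 0.992). All 6 values exceeded those of the libraries without transgenes, 687.6 to 939.8 CPM, and 5xFAD replicate 3 and 5xFAD/p75NTRko replicate 1 were the lowest of the carriers. App, which encodes the mouse amyloid precursor, had a log2 fold change of -0.01 (SE 0.119, edgeR adjusted p = 0.999). Gfap, the intermediate filament of astrocytes, was at 102.9, 89.6 and 113.2 CPM against 84.9, 91.8 and 73.9 CPM, overlapping ranges (adjusted p = 0.970). Slc38a2, an amino acid transporter, had a log2 fold change of 0.13 (adjusted p = 0.988).

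Ide fell from a level that only the 5xFAD libraries had. Ide (chr19:37268743-37334544) encodes insulin-degrading enzyme, a protease that cleaves insulin and amyloid-beta. It was at 59.3, 59.0 and 58.1 CPM in 5xFAD and at 36.3, 30.2 and 30.2 CPM in 5xFAD/p75NTRko. The 6 libraries without the transgenes lay at 24.8 to 28.5 CPM, below all carriers. The log2 fold change was -0.87 (SE 0.108) with an edgeR adjusted p of 0.0140, from 4.141e-07 by DESeq2 to 0.6985 with the Xist class as a term, and it was negative under all 17 alternatives. Leaving out either 5xFAD/p75NTRko replicate 2 or 3, or any 5xFAD library, ended the call (adjusted p of 0.102 to 0.1395). Without the transgenes the receptor-label difference (p75NTRko minus WT) was -0.06, and the difference between the 2 differences, the interaction, was -0.80 with an unadjusted p of 0.00013 and an adjusted p of 0.172. Fgfbp3, a fibroblast growth factor binding protein gene on the same chromosome (chr19:36917550-36919599), was lower among carriers too. It was at 14.9, 11.6 and 14.1 CPM in 5xFAD against 7.83, 8.97 and 7.54 CPM, and did not pass (log2 fold change -0.74, edgeR adjusted p = 0.645).

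**Figure D2:**
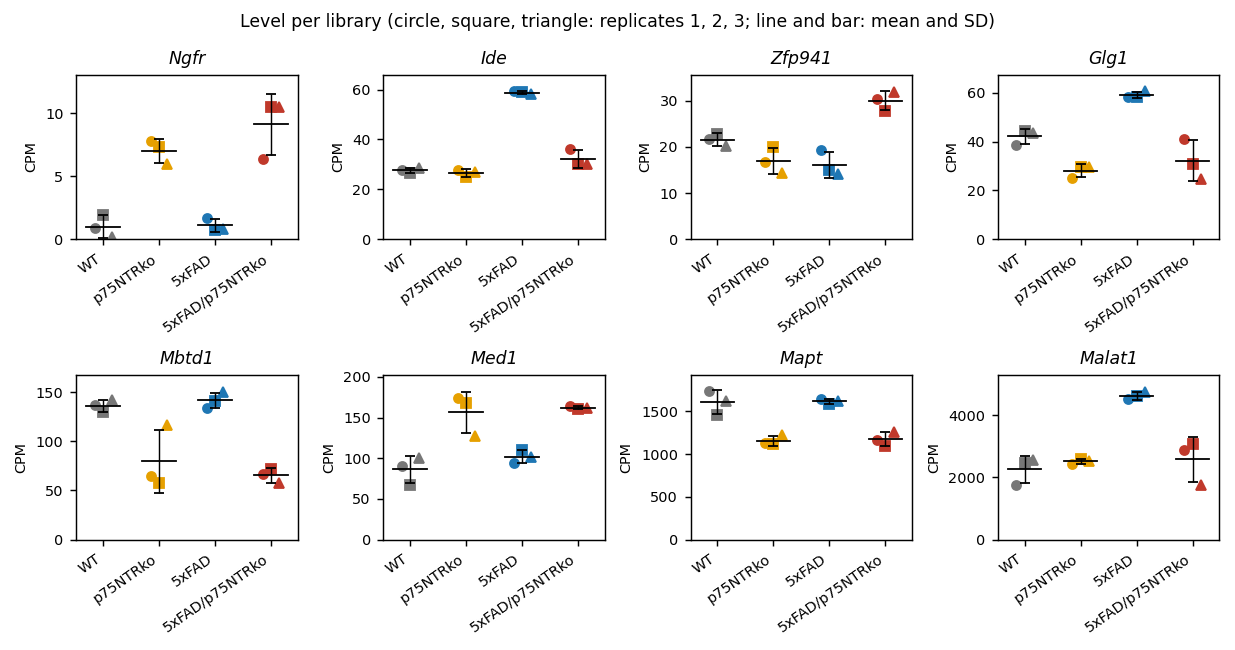
CPM of single genes (y axes) in every library of the 4 genotypes (x axes), with circles, squares and triangles for replicates 1, 2 and 3 and lines and bars for the mean and SD. Ide is high in the 3 5xFAD libraries, at 58.1 to 59.3 CPM, and Ngfr is high in both genotypes labelled p75NTRko, at 5.95 to 10.5 CPM.

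Among autosomal genes lower in 5xFAD/p75NTRko, the 12 with the smallest p were taken from named genes only. Eligible genes had libraries that did not overlap and averaged at least 5 CPM in the higher group. The 12 were Ide, Glg1, Mbtd1, Mapt, Spock2, Fxr1, Ccdc37, Malat1, Golgb1, Top1, Impad1 and Prr18. For 9 of these the 5xFAD libraries were higher than all 9 libraries of the other 3 genotypes, an arrangement that 288 of the autosomal genes tested had in either direction (2.29%). The genes were picked on this contrast, so their count against that share supports nothing. Malat1, an abundant nuclear long non-coding RNA, was at 4511, 4605 and 4759 CPM in 5xFAD and at 2882, 3090 and 1759 CPM in 5xFAD/p75NTRko. The other 6 libraries lay at 1761 to 2589 CPM, so that the 3 5xFAD libraries stood above the rest (log2 fold change -0.84, SE 0.174, edgeR adjusted p = 0.204). Golgb1, which encodes the Golgi tether giantin, was at 31.9, 30.6 and 29.2 CPM in 5xFAD and at 20.8, 20.9 and 20.002 CPM in 5xFAD/p75NTRko, against 18.5 to 24.1 CPM without transgenes.

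Glg1, which encodes a sialoglycoprotein of the Golgi (chr8:111153284-111259210), was at 58.4, 58.4 and 60.6 CPM in 5xFAD and at 41.1, 30.8 and 24.6 CPM in 5xFAD/p75NTRko (log2 fold change -0.88, SE 0.153, edgeR adjusted p = 0.0745). It was lower by label without the transgenes too, with 38.7, 44.3 and 43.3 CPM in WT and 25.2, 29.7 and 29.4 CPM in p75NTRko. Impad1, a nucleotide phosphatase gene, was at 75.9 to 83.4 CPM against 47.4 to 61.9 CPM. Spock2, which encodes the brain proteoglycan testican-2, was at 28.7, 40.6 and 34.5 CPM against 22.5, 19.9 and 19.5 CPM. The RNA-binding protein gene Fxr1 was at 44.8 to 46.3 CPM against 22.6 to 34.5 CPM, and Top1, DNA topoisomerase I, at 299 to 311 CPM against 205 to 255 CPM. None of these passed the adjusted threshold in edgeR, and all were among the 15 autosomal genes that DESeq2 called.

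The 12 autosomal genes higher in 5xFAD/p75NTRko, taken by the same rule, were Ngfr, Zfp941, Med1, Mcat, Arpin, Adgrg1, Snf8, Tmem181b-ps, Utp18, Qpct, Lpin1 and Galns. Here 4 had their highest values in all 3 5xFAD/p75NTRko libraries (Zfp941, Mcat, Snf8 and Qpct), an arrangement of 125 autosomal genes in either direction (0.995%), and 3 had their lowest in the 5xFAD libraries (Arpin, Adgrg1 and Tmem181b-ps). These genes too were picked on this contrast, so the counts support nothing. Zfp941, a zinc finger gene on chromosome 7, was at 19.4, 15.02 and 14.1 CPM in 5xFAD and at 30.3, 27.9 and 32.0 CPM in 5xFAD/p75NTRko, against 14.4 to 22.9 CPM in the other 6 (log2 fold change 0.89, SE 0.155, edgeR adjusted p = 0.0745). Mcat, a mitochondrial fatty acid synthesis gene, was at 4.88 to 6.31 CPM against 9.33 to 10.2 CPM. Qpct encodes glutaminyl cyclase, the enzyme that forms pyroglutamate at peptide ends, including those of amyloid-beta. It was at 8.32, 12.2 and 12.8 CPM in 5xFAD and 15.7, 18.3 and 17.1 CPM in 5xFAD/p75NTRko (log2 fold change 0.62, adjusted p = 0.686). Adgrg1, an adhesion receptor of glia and precursor cells, was at 73.2 to 73.8 CPM against 89.3 to 107.8 CPM. Lpin1, a phosphatidate phosphatase gene, was at 48.1 to 55.0 CPM against 62.3 to 65.7 CPM, and Galns, a lysosomal sulfatase gene, at 3.37 to 5.26 CPM against 6.66 to 10.7 CPM. Tmem181b-ps is listed as a pseudogene with close copies, so its reads may be shared.

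Several genes near Ngfr differed with the receptor label in both comparisons, without passing the adjusted threshold. Mbtd1 and Utp18 lie head to head on chromosome 11, with start sites at 93885850 and 93885766, 84 bases apart, and they differed between the groups in opposite directions. Whether 1 stretch of DNA drives both was not tested. Because the starts lie so close, a promoter window of Mbtd1, 1 of 2 listed for that gene, is printed here (RefSeq, GRCm38.p6, chr11:93885600-93885899, plus strand, 250 bases before to 50 after the Mbtd1 start), with capitals from the Utp18 start site to the Mbtd1 start site.
Mbtd1 promoter: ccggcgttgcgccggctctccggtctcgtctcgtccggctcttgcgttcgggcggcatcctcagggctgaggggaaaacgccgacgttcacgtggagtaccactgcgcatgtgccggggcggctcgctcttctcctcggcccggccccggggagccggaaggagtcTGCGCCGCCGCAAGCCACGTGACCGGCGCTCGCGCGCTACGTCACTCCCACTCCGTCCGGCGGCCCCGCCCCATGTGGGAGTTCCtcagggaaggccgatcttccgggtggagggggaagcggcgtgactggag

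Mbtd1, a subunit gene of a histone acetyltransferase complex, was at 134.1, 140.7 and 150.0 CPM in 5xFAD and at 66.9, 71.7 and 57.1 CPM in 5xFAD/p75NTRko. Without the transgenes it was at 136.4, 129.5 and 141.5 CPM in WT and 64.5, 57.5 and 116.7 CPM in p75NTRko, so the 6 libraries labelled as knockout were all lower than the 6 others. The log2 fold change was -1.12 (SE 0.196, edgeR adjusted p = 0.0745) among carriers and -0.76 without the transgenes. Utp18, a ribosome assembly gene, was at 20.5, 21.97 and 17.7 CPM in 5xFAD and 29.3, 36.3 and 26.4 CPM in 5xFAD/p75NTRko. Its log2 fold changes were 0.61 (adjusted p = 0.683) and 0.65. The pair thus differed in opposite directions, and did so in both comparisons.

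Med1, a subunit of the Mediator complex 2.58 Mb from Ngfr, was at 94.7, 110.2 and 101.0 CPM in 5xFAD and 163.9, 160.2 and 161.7 CPM in 5xFAD/p75NTRko (log2 fold change 0.67, SE 0.140, edgeR adjusted p = 0.214). The libraries without transgenes gave 67.5 to 100.7 CPM in WT and 127.8 to 174.1 CPM in p75NTRko. Mapt, which encodes the microtubule protein tau and lies 8.66 Mb away (chr11:104229409-104332090), was at 1644, 1588 and 1623 CPM in 5xFAD and 1163, 1097 and 1261 CPM in 5xFAD/p75NTRko. It was at 1456 to 1741 CPM in WT and 1115 to 1222 CPM in p75NTRko, so again the 6 libraries labelled as knockout lay below the 6 others. Its log2 fold changes were -0.46 (SE 0.0903, edgeR adjusted p = 0.159) and -0.48. Snf8, an ESCRT-II subunit gene 0.466 Mb away, was at 27.3 to 27.8 CPM in 5xFAD and 36.1 to 38.2 CPM in 5xFAD/p75NTRko. Of the 24 genes named by rule in both directions, 6 separated all libraries labelled as knockout from all others, Ngfr, Med1, Snf8, Utp18, Mbtd1 and Mapt, an arrangement of 41 autosomal genes in all (0.326%). The 24 were picked on the receptor label among carriers, so their count against that share supports nothing. The 5 other than Ngfr lie within 10 Mb of it.

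Within 10 Mb of Ngfr, 233 other genes were tested, and 19 had an unadjusted p under 0.05 (8.15%), against 5.02% of the other autosomal genes. A p under 0.05 in the same direction both with and without the transgenes was reached by 49 autosomal genes (0.39%), Ngfr included, and in opposite directions by 60 (0.478%). The 2 comparisons share no library, but both came from 1 fit to all 12 libraries with a shared estimate of the spread. They are therefore not independent. The 10 Mb window, like the other rules, was set with earlier results of these data known. Of the 233 genes near Ngfr, 9 did so in the same direction (3.86%), against 39 of 12326 elsewhere (0.316%), and 1, Top2a, in opposite directions. The 9 were Mbtd1, Utp18, Snf8, Med1 and Mapt and, chosen after their values were seen, Stac2, Msl1, Mpp3 and C130046K22Rik. Msl1, a scaffold gene of a chromatin complex, had log2 fold changes of -0.36 and -0.40 with and without the transgenes, and C130046K22Rik had -2.35 and -1.63. None of the 9 passed the adjusted threshold in edgeR. Leaving out each of the 6 libraries in turn gave 8 to 11 such genes near Ngfr. With the Xist class as a term there was 1, Mapt, against 3 elsewhere.

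**Figure D3:**
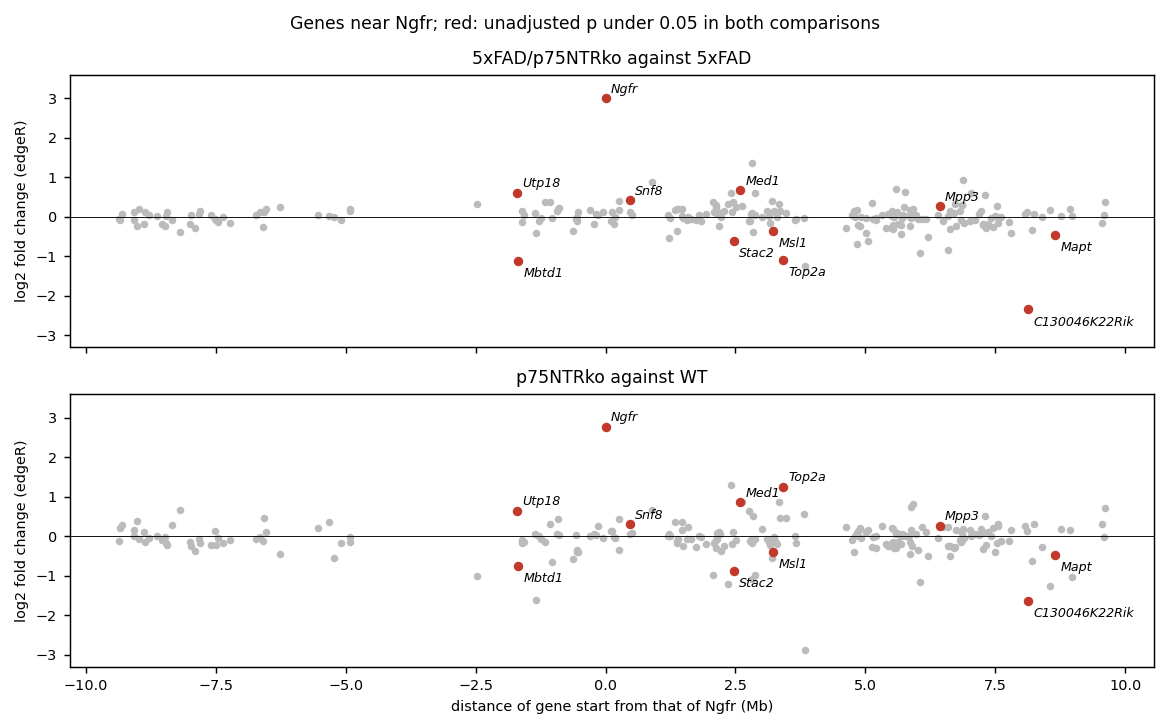
Log2 fold change (y axis, edgeR) of genes by their distance in Mb from Ngfr (x axis), for 5xFAD/p75NTRko against 5xFAD and for p75NTRko against WT. Red genes had an unadjusted p under 0.05 in both comparisons: Ngfr, 9 in the same direction, and Top2a, which lies below 0 in the first and above 0 in the other.

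Oligodendrocyte and myelin genes were lower in 5xFAD/p75NTRko as a group, though no member passed the adjusted threshold. Of 37 genes listed, 35 were autosomal and tested, and all 35 had a negative log2 fold change, with a median of -0.29 against 0.01 over all autosomal genes, of which 52.7% were above 0. An unadjusted p under 0.05 was reached by 12 of the 35, all lower, where 3.11% of autosomal genes were lower at that p, and the libraries did not overlap for 9, where the share was 6.11%. Mobp, a myelin-associated protein gene, was at 235.0, 154.2 and 128.5 CPM in 5xFAD and 113.6, 101.6 and 98.4 CPM in 5xFAD/p75NTRko (log2 fold change -0.73, SE 0.181, edgeR adjusted p = 0.389). Its promoter is printed because it held the most matches of any list member to AACAAAG, letters bound by SOX factors of the oligodendrocyte line (RefSeq, GRCm38.p6, chr9:120149492-120149791, plus strand, 250 bases before to 50 after the start, matches in capitals, read here on the opposite strand).
Mobp promoter: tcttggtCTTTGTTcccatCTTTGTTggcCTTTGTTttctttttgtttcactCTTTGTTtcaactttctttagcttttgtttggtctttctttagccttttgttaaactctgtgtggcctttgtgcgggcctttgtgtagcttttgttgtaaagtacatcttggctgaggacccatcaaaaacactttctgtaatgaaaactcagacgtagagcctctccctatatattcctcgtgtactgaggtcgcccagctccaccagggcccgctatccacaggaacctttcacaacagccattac

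The 4 matches lie 243, 231, 221 and 198 bases before the start and do not overlap. On either strand the motif was found in such windows of 1806 of 27025 genes (6.68%), and in 2 of the 24 list members with a window, Mobp and Cnp. A match is a description of letters and says nothing of binding.

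Pllp, a membrane protein gene of myelin, was at 210.9, 168.1 and 185.8 CPM in 5xFAD and 150.2, 138.2 and 136.1 CPM in 5xFAD/p75NTRko (log2 fold change -0.41, SE 0.0940, edgeR adjusted p = 0.300). Mal, a raft protein gene of myelin, was at 330.2, 238.3 and 217.7 CPM against 185.5, 198.0 and 136.7 CPM, and Tmem88b at 353.3, 274.7 and 332.6 CPM against 267.6, 216.6 and 226.2 CPM. In these 4 genes every 5xFAD library was above every 5xFAD/p75NTRko library. Classical markers, given for their role, were lower too, and some overlapped. Cnp, an enzyme gene of myelin sheaths, was at 230.6, 175.4 and 185.3 CPM against 168.5, 148.9 and 129.5 CPM, without overlap (log2 fold change -0.40, adjusted p = 0.602). Mbp, myelin basic protein, was at 1465, 1086 and 1259 CPM against 1188, 1043 and 889.6 CPM, with overlapping ranges (log2 fold change -0.29, adjusted p = 0.98). Mog, a surface glycoprotein of myelin, was at 52.1, 32.7 and 30.1 CPM against 30.1, 22.8 and 22.1 CPM (log2 fold change -0.62, with an overlap at the lowest 5xFAD library). Sox10, the factor of the lineage, was at 50.8, 41.9 and 48.6 CPM against 41.0, 36.1 and 35.7 CPM, without overlap.

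Which library carried the difference can be read from the summed CPM of the 35 genes. The sum was 5985, 4631 and 5369 CPM in 5xFAD and 5000, 4159 and 3802 CPM in 5xFAD/p75NTRko, so the groups overlapped by 5xFAD replicate 2 and 5xFAD/p75NTRko replicate 1. Without 5xFAD replicate 1 the median was -0.17, 31 of the 35 were lower and 6 had a p under 0.05. Without 5xFAD/p75NTRko replicate 1, the library high in choroid plexus genes, the median was -0.41, all 35 were lower and 23 had a p under 0.05, and without replicate 3 these were -0.20, 32 and 7. Without the transgenes the list leaned the other way, with a median of 0.13 and 24 of 35 higher in p75NTRko, 7 of them at p under 0.05 (background 5.29% higher and 6.12% lower) and 1 lower. The interaction was negative for 32 of the 35, with a median of -0.42, and had an unadjusted p under 0.05 for 14 of them, all negative, where 521 of 12560 autosomal genes (4.15%) were so. Over both directions that p was reached by 9.3% of autosomal genes, and the adjusted threshold by 0.00796%, which included no member. The interaction leaned as far in other lists. It was negative for 16 of 18 dentate granule cell genes (median -0.50, 7 at p under 0.05), for 15 of 19 CA pyramidal cell genes (median -0.51, 6 at that p) and for all 12 ependymal genes (median -1.105, 1 at that p). For thalamus and habenula genes 2 of 18 were negative, with a median of 0.99. Without the transgenes 9 of the 18 dentate genes and 8 of the 19 CA pyramidal genes were higher in p75NTRko at p under 0.05. The Xist class moves with the label among carriers and mostly the other way without the transgenes. The opposite lean and the interaction thus cannot be told apart from the class. With the class as a term the median of the oligodendrocyte and myelin list was -0.27 with 5 p-values under 0.05.

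Oligodendrocyte precursor genes leaned the same way. Of 17 listed, 16 were autosomal and tested, 13 had a negative log2 fold change, the median was -0.21, and 4 had an unadjusted p under 0.05, all lower, where 3.11% of autosomal genes were lower at that p. Libraries did not overlap for 6 members, all lower, where the share was 6.11%. Gpr17, a receptor of cells on the way to myelination, was at 25.5, 37.4 and 26.5 CPM in 5xFAD and 19.3, 15.8 and 17.7 CPM in 5xFAD/p75NTRko (log2 fold change -0.75, SE 0.207, edgeR adjusted p = 0.498). Bcas1, which marks newly forming oligodendrocytes, was at 293.6, 235.7 and 268.4 CPM against 234.5, 165.7 and 147.7 CPM. Olig2, a factor of the whole lineage, was at 19.2, 24.2 and 19.98 CPM against 17.2, 13.6 and 13.3 CPM, and Sox6 had a log2 fold change of -0.36. These 4 did not overlap between the groups. Pdgfra and Cspg4, which define the precursors themselves, had log2 fold changes of -0.07 and -0.06. Without 5xFAD/p75NTRko replicate 1 the median of the list was -0.37. With the score of the oligodendrocyte and myelin list as a term it was -0.04.

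Genes of cholesterol synthesis and transport, by contrast, were mostly higher. Of 22 autosomal members tested of 24 listed, 19 had a positive log2 fold change, the median was 0.19, 6 had an unadjusted p under 0.05, all higher (background 1.97%), and 0 passed the adjusted threshold in edgeR. Fdft1, squalene synthase, was at 17.0, 21.6 and 14.7 CPM in 5xFAD and 35.1, 22.8 and 22.6 CPM in 5xFAD/p75NTRko (log2 fold change 0.60, SE 0.199, adjusted p = 0.715). Hsd17b7 was at 42.1, 43.6 and 46.7 CPM against 48.0, 60.8 and 60.0 CPM. Each of these genes was higher in all 3 5xFAD/p75NTRko libraries than in any 5xFAD library. The mean log2 CPM of the list was 5.19, 5.22 and 5.20 in 5xFAD and 5.23, 5.46 and 5.44 in 5xFAD/p75NTRko, so replicates 2 and 3 carried most of it, and 4.98 to 5.14 in the libraries without transgenes. Members with a p under 0.05 numbered 2 without 5xFAD replicate 1, 1 without 5xFAD/p75NTRko replicate 2 and 2 without replicate 3. With the myelin score as a term the median was 0.07 with 1 such member. The sterol element TCACNCCAC, searched on both strands, was in the promoter window of 1 of the 15 members with a window, Hmgcs1, and of 388 of 27025 genes (1.44%). Hmgcs1 itself had a log2 fold change of 0.07.

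**Figure D4:**
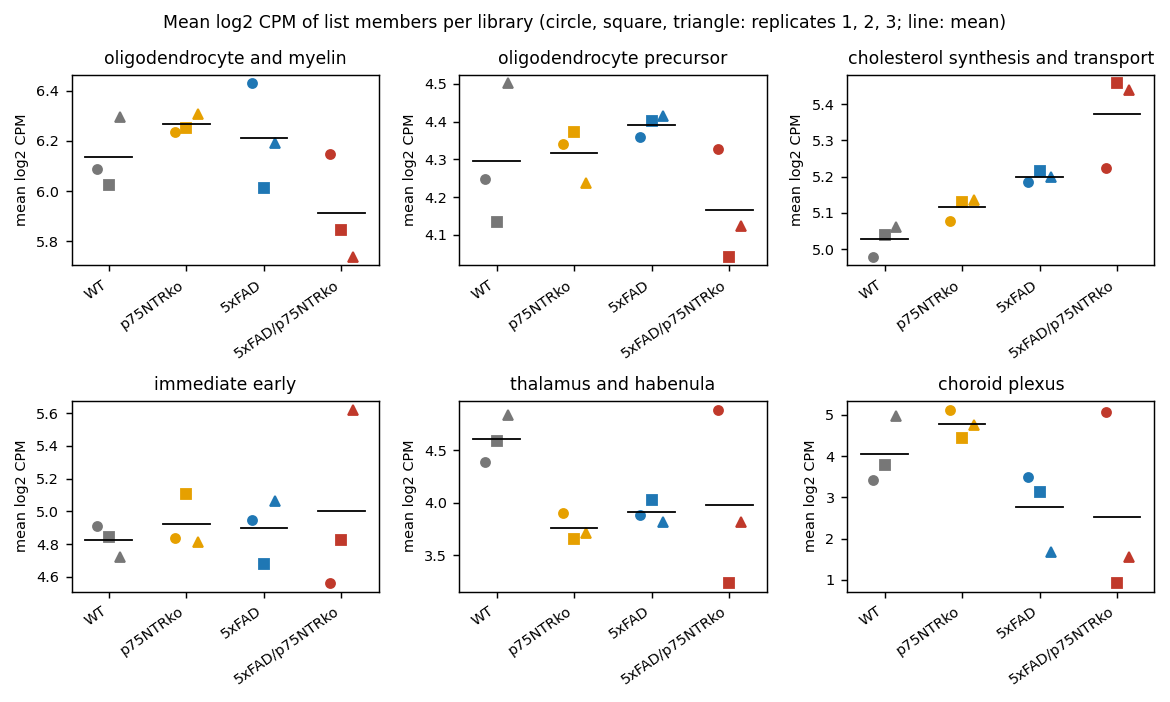
Mean log2 CPM of list members (y axes) in each library of the 4 genotypes, with circles, squares and triangles for replicates 1, 2 and 3 and a line at the mean. The oligodendrocyte and myelin score overlaps between carriers, and 5xFAD/p75NTRko replicate 1 is the high choroid plexus library at 5.06, with 0.93 and 1.57 in replicates 2 and 3.

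Several lists were set by 1 library. All 20 choroid plexus genes tested had a positive log2 fold change, with a median of 0.68, and none reached a p under 0.05. Without 5xFAD/p75NTRko replicate 1 all 20 were negative and 14 had a p under 0.05. Ttr, the transthyretin gene that defines choroid epithelium, was at 6027, 49.5 and 208.9 CPM in 5xFAD/p75NTRko and 1500, 1011 and 142.4 CPM in 5xFAD. Thalamus and habenula genes were higher for 14 of 18 (median 0.30). Of these 2 had a p under 0.05, where 1.97% of autosomal genes were higher at that p. Tcf7l2, a factor of thalamic neurons, was at 117.9 CPM in 5xFAD/p75NTRko replicate 1 and 17.2 to 28.4 CPM in the other 5, and without replicate 1, 8 of 18 were higher. Rora, a nuclear receptor gene of that list, was at 222.6, 92.0 and 164.4 CPM against 98.7 to 115.6 CPM in 5xFAD. Of ependymal and ciliated cell genes, 10 of 12 were lower (median -0.49), none at a p under 0.05. Without 5xFAD/p75NTRko replicate 1 all 12 were lower, with a median of -1.217 and 5 at that p, and without replicate 3 the median was -0.10. Immediate early genes, switched on within minutes of neuronal activity, were higher for 21 of 27 (median 0.32) with none at a p under 0.05, and 6 of 27 without 5xFAD/p75NTRko replicate 3. Without replicate 1 they were higher for 23, 6 of them at that p. Arc, a synaptic immediate early gene, was at 153.1 CPM in 5xFAD/p75NTRko replicate 3 and 24.4 to 62.1 CPM in the other 5. Egr2 was at 21.5 CPM in replicate 3 against 1.67 to 4.21 CPM.

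Lists of glial reaction split nearly evenly between higher and lower members. Homeostatic microglia genes split 11 higher and 11 lower (median 0.00). A p under 0.05, reached by 5.09% of autosomal genes, was found for 1 of them, Sall1. This factor of microglial identity was at 21.7 to 26.3 CPM against 30.3 to 33.6 CPM. Disease-associated microglia genes split 13 and 15 of 28 with a median of -0.01 and 0 at that p. Trem2, the lipid receptor of that state, was at 4.24, 6.76 and 4.84 CPM in 5xFAD and 7.16, 7.02 and 5.90 CPM in 5xFAD/p75NTRko, overlapping ranges. Reactive astrocyte genes split 10 and 12 (median -0.07) with 0 at that p. Of 22 astrocyte identity genes 13 were lower, 2 of them at p under 0.05, S100b and Mlc1, where 3.11% of autosomal genes were. S100b, a calcium-binding protein gene, was at 429.6, 349.1 and 357.6 CPM against 309.2, 299.2 and 320.5 CPM. Endothelial genes were lower for 17 of 22 (median -0.11) and mural cell and fibroblast genes for 14 of 19 (median -0.12), with 0 and 1 at p under 0.05. The mural cell and fibroblast median was -0.43 without 5xFAD/p75NTRko replicate 1, with 4 at that p.

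Medians of the neuronal lists lay between -0.12 and 0.11, and for several of them 1 library set the sign. Dentate granule cell genes were lower for 13 of 18 (median -0.12, 0 at p under 0.05), and CA pyramidal cell genes for 11 of 19 (median -0.06). Leaving out 1 library moved the dentate median between -0.17 (without 5xFAD/p75NTRko replicate 2) and 0.04 (without replicate 3), and the same omissions moved the CA pyramidal median between -0.30 and 0.07, with 0 to 5 members at p under 0.05 over the 6 omissions. GABAergic interneuron genes were higher for 17 of 22 with a median of 0.11, and 0 had a p under 0.05. Sst, somatostatin, was at 245.5, 229.9 and 254.8 CPM against 225.1, 306.4 and 330.8 CPM. Neocortex and subiculum layer genes were higher for 11 of 18 (median 0.09) and striatal genes for 6 of 13 (median -0.01). The neocortex and subiculum median was -0.10 without 5xFAD/p75NTRko replicate 3 and 0.20 without replicate 2. Presynaptic vesicle genes were higher for 21 of 27, with a median of 0.07, which was 0.00 without replicate 3 and 0.14 without replicate 1. Glutamate receptors (median 0.03), GABA receptors (0.03), postsynaptic scaffold genes (0.01) and potassium channels (0.01) had 1 to 3 members each at p under 0.05. Over all autosomal genes 5.09% reached that p in either direction. Homer2, a postsynaptic scaffold gene, was at 198.1, 228.7 and 254.5 CPM against 173.9, 190.8 and 175.4 CPM, and Gabra2, a GABA receptor subunit, at 18.2, 17.8 and 13.9 CPM against 12.2, 12.5 and 10.5 CPM. Both groups of values were apart, as 6.11% of autosomal genes were in that direction. Neither gene passed the adjusted threshold (0.686 and 0.692 in edgeR).

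Adult neurogenesis, the subject of the series title, gave no call. Of 27 neurogenesis genes tested of 31 listed, 17 were lower (median -0.07), 3 of them at p under 0.05, and 1 was higher at that p (3.11% lower and 1.97% higher over all autosomal genes). Fabp7, a fatty acid binding protein of radial precursors, was at 59.3, 70.2 and 56.6 CPM in 5xFAD and 107.9, 90.4 and 74.3 CPM in 5xFAD/p75NTRko (log2 fold change 0.55, SE 0.196, edgeR adjusted p = 0.797). Lpar1, a lysophosphatidic acid receptor gene, was at 100.7, 89.0 and 86.3 CPM against 81.8, 61.6 and 58.7 CPM. Its log2 fold change ranged from -0.610 to -0.194 over 17 alternative settings. Thbs4 was at 15.5, 10.7 and 14.3 CPM against 8.49, 7.02 and 9.02 CPM. In all 3 genes the groups did not overlap, as for 11.3% of autosomal genes in either direction. Dcx, the X-linked marker of immature neurons, was at 25.1, 29.1 and 21.5 CPM against 25.3, 32.0 and 43.4 CPM, overlapping (adjusted p = 0.970). Cell cycle genes split 11 and 10 of 21 with a median of 0.02, and 3 were lower at p under 0.05, against the same 3.11%. Top2a, a topoisomerase of dividing cells, was at 5.77, 3.76 and 3.997 CPM against 1.67, 3.12 and 1.64 CPM, and Ccnd1 and Ccnd2, G1 cyclins, had log2 fold changes of -0.36 and -0.27.

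Ngfr itself, described above, passed the adjusted threshold and is not counted in the lists that follow. Of the other receptors of neurotrophins, the neurotrophins and the partners of p75, none passed it in edgeR. Among ligands, Bdnf was at 90.7, 82.8 and 92.6 CPM against 100.4, 116.2 and 81.3 CPM, overlapping ranges. Ntf3, neurotrophin-3, was at 4.07, 6.01 and 2.73 CPM against 8.33, 7.02 and 6.56 CPM, apart but with an edgeR adjusted p of 0.878. Among receptors, Ntrk3, which binds neurotrophin-3, was at 200.5, 207.9 and 202.4 CPM in 5xFAD and 170.9, 171.3 and 153.0 CPM in 5xFAD/p75NTRko (log2 fold change -0.30, SE 0.0817, adjusted p = 0.475). Ntrk2, the receptor of Bdnf, had a log2 fold change of -0.16, with overlapping libraries. Sort1, sortilin, the co-receptor for precursor neurotrophins, had a log2 fold change of 0.01. Of 22 partners and effectors of p75 tested of 29 listed, 12 were higher and 10 lower (median 0.06), and 2 had a p under 0.05, both higher (1.97% of autosomal genes). Among them Prdm4, a zinc finger partner of the receptor, was at 14.8, 18.2 and 15.4 CPM against 19.8, 19.3 and 23.4 CPM.

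Amyloid precursor processing and clearance genes were lower for 14 of 20 (median -0.06), 3 at p under 0.05, Ide, Aph1b and Aph1a, where 3.11% of autosomal genes were lower at that p. Aph1b, a gamma-secretase subunit gene, was at 24.8, 29.5 and 23.8 CPM against 21.8, 17.7 and 15.4 CPM, and Aph1a, its paralogue, at 72.7, 69.3 and 72.2 CPM against 63.1, 63.9 and 58.0 CPM. Both were apart, as 6.11% of autosomal genes were in that direction, and did not pass (edgeR adjusted p of 0.812 and 0.908). Bace1, beta-secretase, had a log2 fold change of 0.00 and Mme, neprilysin, of -0.13.

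Housekeeping lists shifted little. Respiratory chain genes were higher for 61 of 74, with a median of only 0.05, and cytosolic ribosomal protein genes for 51 of 72 (median 0.06). Shared reads of near-identical copies make single ribosomal genes uncertain, among them Rps27a, which was at 85.4, 131.6 and 65.0 CPM against 108.7, 448.9 and 474.1 CPM. Stress and unfolded protein response genes were lower for 21 of 28 (median -0.05), with 1 at p under 0.05, Chac1. Over all autosomal genes 3.11% were lower at that p, and 5.09% reached it in either direction. Heat shock (0.04), circadian clock (0.06), glucocorticoid-responsive (0.02), interferon response (-0.04) and proteasome (0.03) lists had medians near 0, and 0 to 2 members each at p under 0.05. The glucocorticoid-responsive median ranged from -0.21 without 5xFAD replicate 2 to 0.32 without 5xFAD replicate 1. With the Xist class as a term, which rests on p75NTRko replicate 1, it was -0.82.

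**Figure D5:**
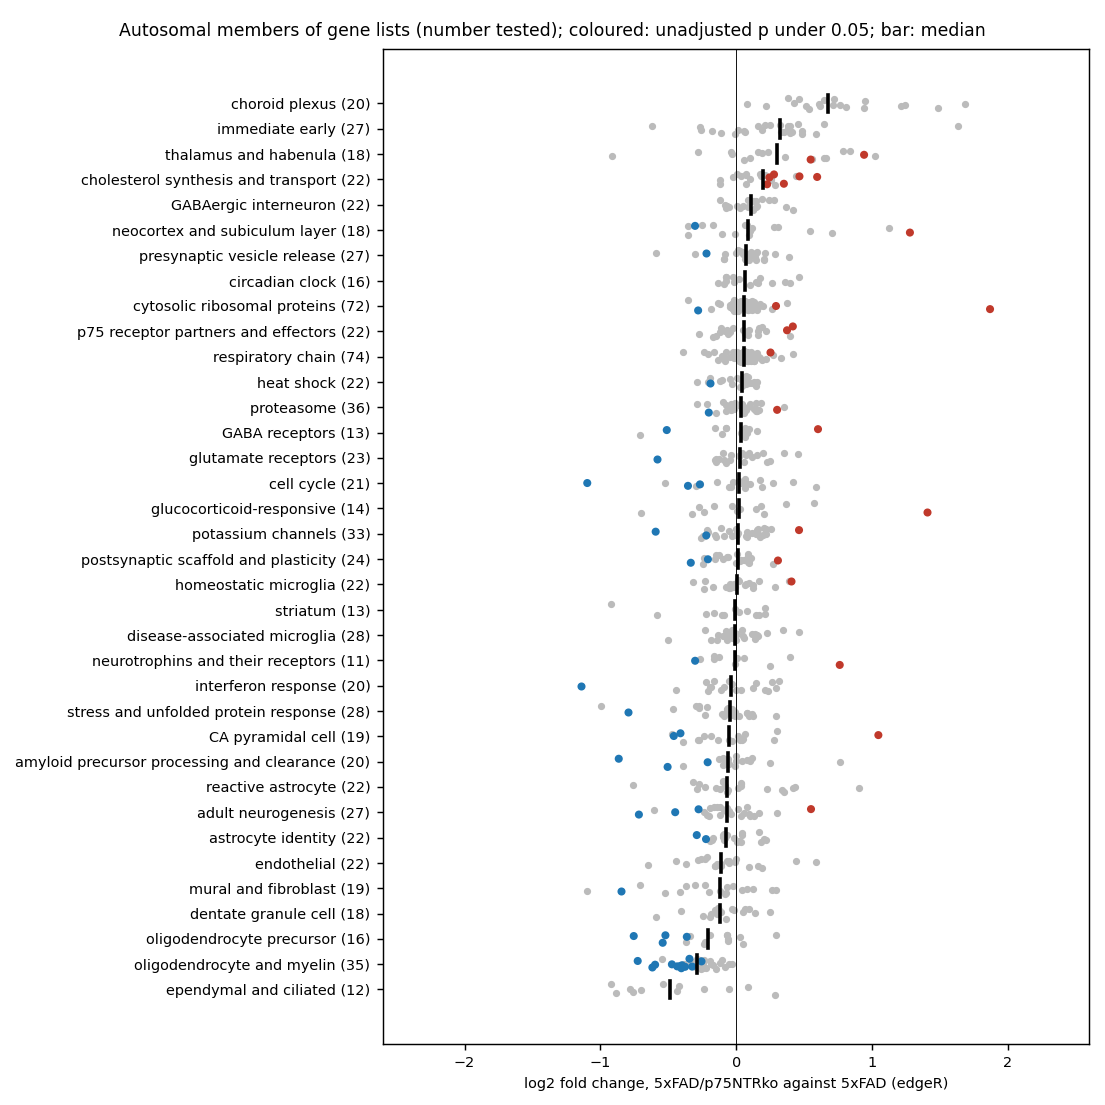
Log2 fold change of 5xFAD/p75NTRko over 5xFAD (x axis) for autosomal members of each list (rows, with the number tested), coloured where the unadjusted p was under 0.05, with a bar at the median. All 35 oligodendrocyte and myelin genes lie below 0 and 19 of 22 cholesterol genes lie above it. The blood list, with 1 gene tested, is left out.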

How the data were processed

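Hippocampal RNA of 12 mouse libraries was measured by 3′ mRNA sequencing (QuantSeq FWD on total RNA, per the labels' protocols), 3 libraries per genotype. The authors deposited 1 table of raw, unnormalized read counts by gene symbol. Per the submitters' processing notes, FastQC, HISAT2, SAMtools, HTSeq and edgeR and the mm10 build were used; versions, the annotation and the strand setting are not given in the sources used here, so overlapping and antisense genes are uncertain. Lines of the table that name no gene were left out, and 32.2% to 38.5% of the table's reads were assigned to genes.

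In R 4.3.3, edgeR 4.0.16 was run on these counts with filterByExpr by genotype, TMM scaling, and a quasi-likelihood fit of 4 genotype means to all 12 libraries, which share 1 estimate of the spread. The contrast was 5xFAD/p75NTRko minus 5xFAD, called at 0.05 after Benjamini-Hochberg correction across the 13065 genes. CPM uses TMM-scaled library sizes, and list scores average log2 CPM with a prior count of 2. RefSeq (GRCm38.p6) gave the positions, which 99.8% of the tested genes had, and the 300-base promoter windows. Amplified reads are not independent molecules, so limits cover counting error only.

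The groups, the 37 lists (17 of cell types or tissues, 20 of functions) and the rules were chosen with earlier results of these data known. Named genes were a short list of genes known from them (Ngfr, Thy1, App, Ide, Fgfbp3, Gfap, Dcx, Slc38a2, Adra1b), all genes past the threshold, the 12 rises and 12 falls with the smallest p (autosomal, libraries not overlapping, at least 5 CPM in the higher group) and up to 4 autosomal members per list with the smallest p. Unnamed gene models were left out of the 12 rises and 12 falls. Other list members are given for their role, and genes called only under another setting are named as such. Lists are described by counts and medians and were not tested. Some members counted in the lists are not reported here by name. Alternatives were DESeq2 1.42.0, RLE scaling, other filters (none, or a mean of 50 counts), only the 6 libraries, each of them left out, the replicate number as a block, autosomal genes only, and terms for the Xist class (limit 50 CPM) and for choroid plexus, thalamus and myelin scores. The fit was also run on simulated counts with known changes, and the outcome is not reported here.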

Additional observations from a re-analysis of the deposited data

Results flagged for a closer look

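The receptor-label difference of Adra1b, which encodes the alpha-1B adrenergic receptor, was itself not the same among carriers and among libraries without the transgenes. The interaction was 2.73 on the log2 scale (edgeR quasi-likelihood test, adjusted p = 0.0307). Adra1b was the only autosomal gene of 12560 past the threshold in that test (0.00796%), where 1168 (9.3%) had an unadjusted p under 0.05. Adra1b was at 14.4, 19.5 and 13.3 CPM in 5xFAD and 39.1, 19.3 and 44.4 CPM in 5xFAD/p75NTRko, against 74.1, 60.9 and 35.8 CPM in WT and 22.1, 17.5 and 16.9 CPM in p75NTRko. Among the carriers the libraries overlapped at 5xFAD/p75NTRko replicate 2, which also had the lowest thalamus and habenula sum of the 12, 386.7 CPM. Replicate 1 and the WT libraries had the 4 highest, 737.9 to 1109 CPM. Other libraries did not follow that order. Replicate 3, with the highest Adra1b of the carriers, had a sum of 561.0 CPM, against 475.0 to 555.7 CPM in 5xFAD. Within WT the sums rose from replicate 1 to 3 (737.9, 945.3 and 1012 CPM) while Adra1b fell. A link between the 2 was not tested. With the thalamus and habenula score as a term 0 named genes passed the threshold, and with the Xist class as a term also 0. From WT to p75NTRko the Xist class mostly moves opposite to its move among carriers. The interaction thus cannot be told apart from the class. Without 5xFAD/p75NTRko replicate 2 there were 6 (Adra1b, Foxp2, Grm4, Ramp3, Rora and Slc17a6), and without any of the other 5 carrier libraries there were 0.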

How the results depend on the processing

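With 5 genes past the adjusted threshold, 2 of them autosomal, and 1 named gene past it in the interaction, the counts were 20, 15 and 11 by DESeq2, 14, 9 and 5 without a filter, 1, 1 and 0 with a mean of at least 50 counts, 1, 1 and 4 with the choroid plexus score as a term, and 1, 1 and 0 with the myelin score, where the autosomal call was Gata3. Fitting only the 6 libraries gave 9 and 4. Autosomal genes alone gave 1 (Ide) and 0 in the interaction, and the thalamus score gave 0 in the interaction. The Xist class gave 0 for all 3. Replicate numbers did not pair the libraries (correlations of 0.145, -0.137 and 0.0545 between same-numbered libraries), and with the replicate block all 3 counts were 0 (574 autosomal genes at an unadjusted p under 0.05). Leaving out 1 library gave 0 to 7 genes, 0 to 7 autosomal and 0 to 6 in the interaction, and an Ngfr difference of 7.33 to 9.40 CPM.

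List medians ranged over the same omissions from -0.410 to -0.173 (oligodendrocyte and myelin), -0.367 to -0.138 (precursors) and 0.130 to 0.251 (cholesterol). Medians of several other lists changed sign: CA pyramidal (-0.3009 to 0.06636), dentate granule (-0.1731 to 0.03948) and neocortex and subiculum genes (-0.09695 to 0.201) among them. With the myelin score as a term precursors were at -0.044 and cholesterol at 0.0736. Signs turned with the Xist class for Slc38a2 (-0.1245), Ddx3y (0.2191), Eif2s3y (1.343) and Uty (1.629), with the myelin score for App (0.1036), and without 1 library for App (-0.08265 to 0.0495) and Thy1 (-0.417 to 0.1748), both far from the threshold. The cause was not tested. Other directions printed from the 91 genes rechecked did not turn. Depth limits Ngfr, at 4 to 64 counts per carrier library.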
